A study of Mus musculus with 22 samples.

Results

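Microtubule-associated proteins other than tau were followed through an hnRNP A1 CLIPseq experiment on mouse spinal cord. The 8 genes were Map1a, Map1b, Map1s, Map2, Map4, Map6, Map7 and Map7d1, of 55450 genes in the GENCODE annotation of GRCm38. A footprint, meaning a genomic interval that a mouse's RNA left after immunoprecipitation and background subtraction, was assigned to a gene when it overlapped the gene's span by at least 1 nt. Of the 136207 footprints of the 10 mice, 477 lay in these genes, and 7 of the 8 genes carried at least 1. Map1s carried none in any mouse.

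The 10 libraries came from 3 naïve mice, 3 mice with mild experimental autoimmune encephalomyelitis (EAE; clinical scores 1.0, 1.5 and 1.5) and 4 mice with severe EAE (2.5, 2.5, 3.0 and 3.0), each library from the cord of 1 mouse. All were female wild-type C57Bl/6 mice. The EAE mice were immunized with MOG(35-55), a myelin peptide, in complete Freund's adjuvant with pertussis toxin, at 12 weeks of age by the treatment protocol and 8 weeks by the series' design text, and their cords were taken 15 days after clinical onset. Naïve mice were age-matched and healthy, so adjuvant and toxin went with the peptide in every EAE mouse. Inputs and IgG controls were not analysed here.

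The length of the footprint lists differed widely. Naïve mice had 17119 to 17494 footprints and mild EAE mice 9751 to 24433. Severe EAE mice 1, 2 and 3 had 2670, 209 and 673, whereas severe EAE mouse 4 had 31870, the most of the 10 mice. Every value below is a length in nucleotides under footprints or a count of footprints. The lists hold no read counts, scores or strand, so the read depth behind a footprint is unknown, and fewer cells of a type, less RNA per cell and less binding cannot be told apart.

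Microtubule-associated proteins bind along the microtubule lattice and set its stability, spacing and traffic. In neurons, MAP2 marks dendrites and cell bodies, MAP1B is prominent in growing axons, MAP1A in mature neurons, and MAP6 keeps microtubules stable in the cold, while MAP7 and MAP7D1 recruit the motor kinesin-1 and MAP4 and MAP1S are made in many cell types. hnRNP A1 is an RNA-binding protein of the nucleus that takes part in splicing and transport of RNA and is known to bind UAG-containing sequence.

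For each footprinted gene, the stretch shown is the wholly coding one of at least 80 nt that lay under footprints of the most mice, and for Map2 the best such stretch of its largest coding exon is added. Exon numbers follow the complete GENCODE transcript with the longest coding sequence. The sequences are the GRCm38 reference read 5′ to 3′ on the gene's strand, in DNA letters, with every TAG (UAG in RNA) and AGGT (AGGU in RNA) in capitals.
Map1a exon 5, chr2:121299842-121299932 (+ strand): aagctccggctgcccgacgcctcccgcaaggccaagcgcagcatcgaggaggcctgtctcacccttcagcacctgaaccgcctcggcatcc
Map1b exon 5, chr13:99430942-99431085 (− strand): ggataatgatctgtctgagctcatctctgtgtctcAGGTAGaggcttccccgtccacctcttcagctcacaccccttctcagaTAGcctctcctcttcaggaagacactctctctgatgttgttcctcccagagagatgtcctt
Map2 exon 12, chr1:66425197-66425369 (+ strand): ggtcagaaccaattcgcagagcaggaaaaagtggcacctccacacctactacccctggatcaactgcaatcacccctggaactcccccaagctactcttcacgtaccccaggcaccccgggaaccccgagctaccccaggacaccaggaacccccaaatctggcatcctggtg
Map2 exon 7, chr1:66412622-66412715 (+ strand): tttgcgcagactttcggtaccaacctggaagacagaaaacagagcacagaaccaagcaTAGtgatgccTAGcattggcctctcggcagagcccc
Map4 exon 4, chr9:110026101-110026196 (+ strand): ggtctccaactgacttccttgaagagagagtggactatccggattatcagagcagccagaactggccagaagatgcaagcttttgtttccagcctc
Map6 exon 3, chr7:99317515-99317668 (+ strand): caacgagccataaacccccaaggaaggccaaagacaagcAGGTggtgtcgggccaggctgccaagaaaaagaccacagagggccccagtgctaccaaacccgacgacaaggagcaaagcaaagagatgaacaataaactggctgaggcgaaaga
Map7 exon 2, chr10:20230788-20230882 (+ strand): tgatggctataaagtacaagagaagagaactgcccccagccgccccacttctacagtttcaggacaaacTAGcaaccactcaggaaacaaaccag
Map7d1 exon 2, chr4:126242023-126242128 (− strand): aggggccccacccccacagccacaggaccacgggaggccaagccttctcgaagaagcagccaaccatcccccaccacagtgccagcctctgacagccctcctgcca
The Map7d1 stretch was covered in 7 mice (2 naïve, 3 mild EAE, 2 severe EAE). The Map1a, Map4 and Map7 stretches were covered in 6 mice each, those of Map1b and Map2 in 5 and that of Map6 in 3. The Map2 site found in the most mice was not coding but lay in its 3′ UTR (chr1:66441852-66441932, 6 mice). The Map7 stretch fills all but 4 nt of exon 2, which is 99 nt long.

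Map1a and Map1b encode large polyproteins that are cut into a heavy and a light chain, and both were among the most covered genes. Map1a (ENSMUSG00000027254.13, chr2:121289600-121310832, + strand) had 1292, 1290 and 2734 nt under footprints in naïve mice 1 to 3, 2180, 1413 and 3891 nt in mild EAE mice 1 to 3, and 403, 137, 271 and 3804 nt in severe EAE mice 1 to 4. Severe EAE mice 1 to 3 lay below all naïve and mild EAE mice, and mouse 4 lay with the highest. All 7 footprinted members were found in all 3 naïve mice, as were 34.5% of genes tested. Map1a was the one member footprinted in all 10 mice, which held for 13 of 6731 genes tested (0.193%). The only footprint that the shortest list, of severe EAE mouse 2, placed in any member was a 137-nt interval in the Map1a 3′ UTR.

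Map1b (ENSMUSG00000052727.6, chr13:99421446-99516540, − strand) had 1511, 860 and 2366 nt in naïve mice, 2486, 1287 and 2280 nt in mild EAE mice, and 1134, 0, 0 and 5367 nt in severe EAE mice. Severe EAE mouse 1 had 7 Map1b footprints and lay inside the naïve range, whereas it lay below the naïve range for every other member. Map1s (ENSMUSG00000019261.3, chr8:70905932-70917529, + strand), the shorter relative with 7963 nt of annotated exon, was listed in no mouse. With no read counts in the lists, no limit can be put on its level.

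Map2 (ENSMUSG00000015222.17, chr1:66175273-66442583, + strand) had the largest covered length summed over the 10 mice, 17783 nt, just above Map1a with 17415 nt and Map1b with 17291 nt. It had 2462, 791 and 3525 nt in naïve mice, 875, 1602 and 2651 nt in mild EAE mice, and 344, 0, 0 and 5533 nt in severe EAE mice. The naïve and mild EAE ranges overlapped. Map4 (ENSMUSG00000032479.15, chr9:109931460-110083955, + strand), the broadly made relative of MAP2 and tau, had 580, 877 and 666 nt in naïve mice, 1261, 1123 and 1421 nt in mild EAE mice, and 168, 0, 0 and 2892 nt in severe EAE mice. Its mild EAE mice all lay above its naïve mice, with means of 1268 ± 149 and 708 ± 153 nt (SD, n = 3 each). Map4 was the 1 member of 7 with this separation, which 5.24% of all genes tested showed.

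Map6 (ENSMUSG00000055407.14, chr7:99267447-99337137, + strand) had the smallest covered length of the footprinted members, with 525, 561 and 244 nt in naïve mice, 283, 171 and 156 nt in mild EAE mice, and 0, 0, 0 and 904 nt in severe EAE mice. Map7 (ENSMUSG00000019996.17, chr10:20148471-20281590, + strand) had 901, 487 and 615 nt in naïve mice, 596, 214 and 591 nt in mild EAE mice, and 0, 0, 0 and 1468 nt in severe EAE mice. For both Map6 and Map7 severe EAE mice 1 to 3 had no footprint at all, and the naïve and mild EAE ranges overlapped. Map7d1 (ENSMUSG00000028849.17, chr4:126232167-126256343, − strand) had 776, 589 and 420 nt in naïve mice, 1374, 771 and 1046 nt in mild EAE mice, and 133, 0, 0 and 1418 nt in severe EAE mice. Its lowest mild EAE mouse lay just under its highest naïve mouse.

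**Figure D1:**
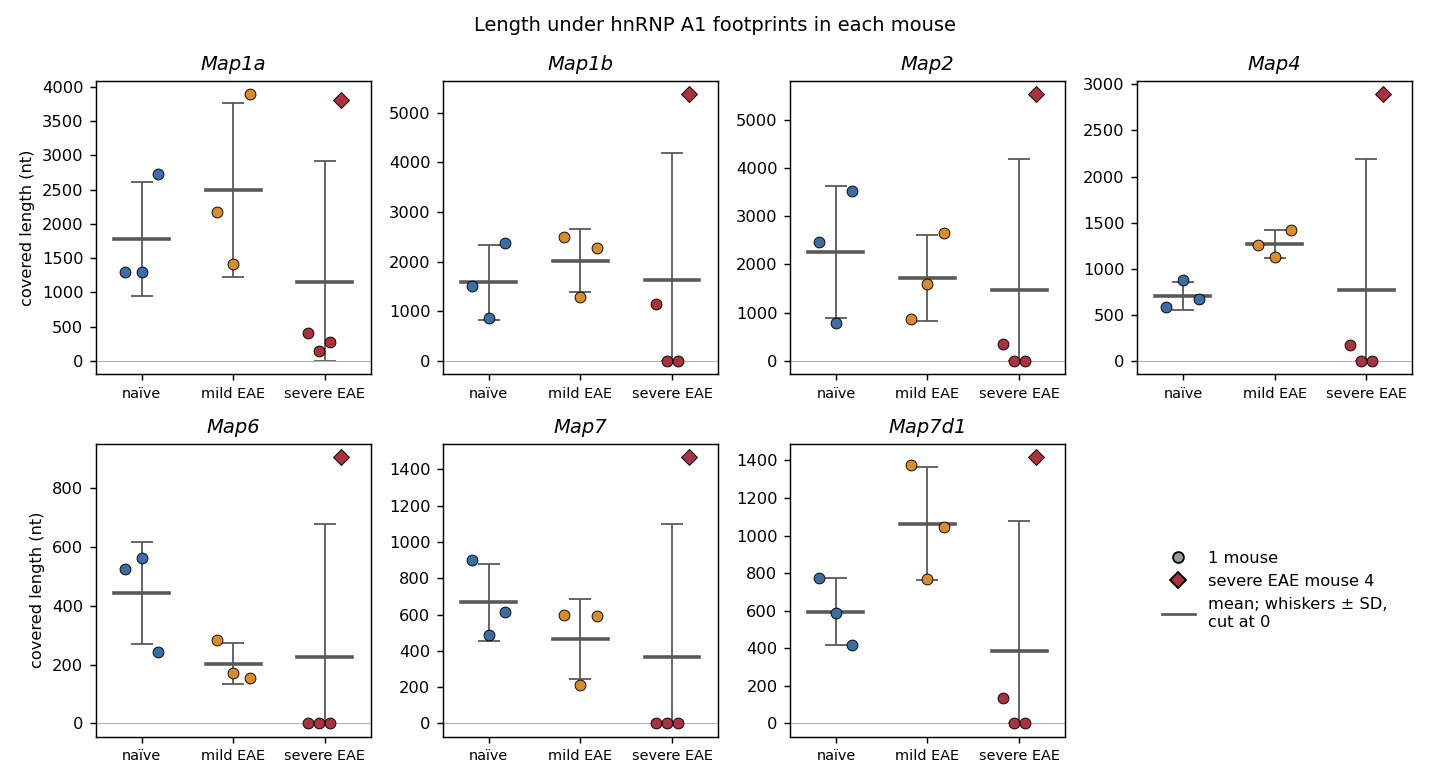
Covered length (nt, linear axes that differ between panels) of the 7 footprinted genes in each of 3 naïve, 3 mild EAE and 4 severe EAE mice; bars are group means and whiskers ± SD, cut at 0. Severe EAE mouse 4, the diamond, is the highest of the 10 mice for every gene shown except Map1a. The other severe EAE mice lie below all naïve mice, except mouse 1 for Map1b (1134 nt).

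None of the 7 footprinted members passed the test between EAE and naïve mice. By a two-sided exact permutation test of the mean covered length over the 120 splits of 7 EAE and 3 naïve mice, unadjusted p ran from 0.300 for Map6 to 0.975 for Map1a, and the Benjamini-Hochberg adjusted p over all 6731 genes tested was 1.00 for each. An unadjusted p below 0.05 was reached by 6.18% of all genes tested (416 genes) and an adjusted p below 0.05 by 0%. The mean difference (EAE minus naïve) was −687 nt for Map2 (EAE 1572 ± 1991 nt, n = 7; naïve 2259 ± 1378 nt, n = 3; SD), −258 nt for Map7, −227 nt for Map6 and −43.6 nt for Map1a, and 273 nt for Map4, 214 nt for Map1b and 82.4 nt for Map7d1. The median difference of the 7 members was −43.6 nt, beside −26.3 nt over all genes tested. Of the members, 4 of 7 were lower in EAE (57.1%), beside 59.7% of all genes. The directions for Map1a, Map1b, Map4 and Map7d1 turned when single mice were left out or the scale was changed.

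The test between the 3 groups passed no member either. The exact permutation test over 4200 assignments gave unadjusted p from 0.253 for Map7d1 to 0.964 for Map1b, so 0 of 7 members passed an unadjusted p below 0.05, which 6.11% of all genes passed. The unadjusted count changed when severe EAE mouse 4 was left out, while no member passed after adjustment with or without that mouse. It had the highest value of the 10 mice in 6 of 7 members, beside 41.1% of all genes tested, and with it no member had every severe EAE mouse below every naïve mouse (0 of 7, beside 4.72% of genes), nor every severe EAE mouse above every naïve mouse (0 of 7, beside 0.0149%). Without it, 6 of 7 members had every severe EAE mouse below every naïve mouse, all but Map1b, beside 30.7% of genes (2067). That order needs a footprint in all 3 naïve mice, which all 7 members but only 34.5% of genes (2322) had. The 2 shares are thus of unlike sets, and no excess of the members is read from them. The shares that follow are over all genes tested too. In the 3-group test without that mouse, Map4 (p = 0.00357), Map6 (p = 0.00714), Map7d1 (p = 0.00714) and Map7 (p = 0.0143) had unadjusted exact permutation p below 0.05, as did 17.5% of all genes, and their adjusted p over all genes was 0.175 to 0.233. Against all EAE mice, Map6 alone then lay under 0.05 (exact permutation p = 0.0238, adjusted p = 0.313), beside 11.3% of genes. The short lists of severe EAE mice 1 to 3 move with these values, and their part in them was not tested.

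Per length, Map7d1 and Map1a were the most covered members. The footprints of naïve mice covered 14.6% ± 6.85 of the annotated exonic length of Map1a, 13.8% ± 2.90 of Map7d1, 11.7% ± 6.16 of Map2 and 8.76% ± 5.87 of Map1b (SD, n = 3). The lower members were Map7 with 4.33% ± 2.59, Map4 with 4.18% ± 0.304 and Map6 with 2.03% ± 2.16. Neighbours in this order overlapped within 1 SD of each mean. In mild EAE mice, Map7d1 reached 29.1% ± 8.24 and Map4 8.36% ± 0.988. By mean covered share of exonic length in naïve mice, the 7 members ranked between the 58.5 percentile (Map6) and the 95.5 percentile (Map1a) of all genes tested.

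**Figure D2:**
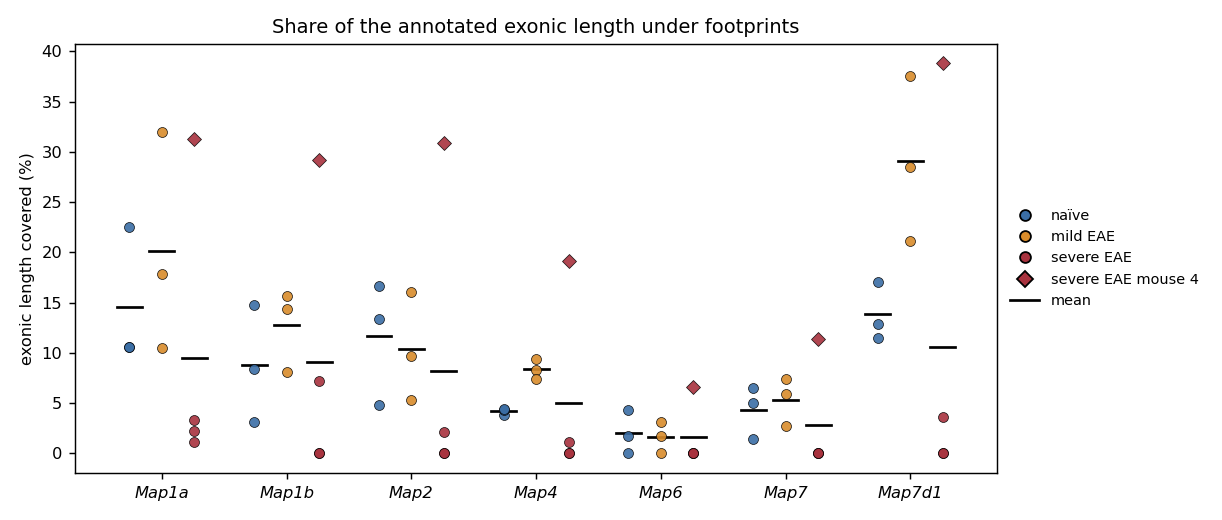
Share of the annotated exonic length (%) under footprints for the 7 footprinted genes, 1 point per mouse, with the group mean as a bar. Map7d1 in mild EAE mice (mean 29.1%) lies above Map7d1 in naïve mice (13.8%), and Map6 stays lowest in each group (1.60 to 2.03%).

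Within Map1a, Map1b and Map2 the footprints gathered in 1 very large coding exon. Exon 5 of Map1a (8104 nt, chr2:121299269-121307372) and exon 5 of Map1b (6490 nt, chr13:99429212-99435701) encode most of the heavy chains. Exon 7 of Map2 (3741 nt, chr1:66412407-66416147) is the one that sets the long, high-molecular-weight MAP2 apart from the short forms. These exons held 83.7%, 66.4% and 55.9% of all exonic nucleotides under footprints in the 3 genes, while making up 66.6%, 41.0% and 22.7% of their annotated exonic length. In Map1b and Map2 the large exon was more densely covered than the rest of the exonic sequence in each of the 8 mice with exonic footprints, and in Map1a in 8 of 10. In Map2, 27.6%, 7.46% and 37.9% of the exon lay under footprints in naïve mice, 10.2%, 27.1% and 41.7% in mild EAE mice, and 4.89%, 0%, 0% and 86.6% in severe EAE mice. Among the 824 tested protein-coding genes whose largest coding exon holds at least 1000 coding nt, the exon was the more densely covered part in 56.6%, so this was common.

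Map4 showed the opposite. Its largest coding exon (3180 nt, chr9:110037288-110040467), which is not in the complete transcript with the longest coding sequence, held 0 nt in all naïve mice, 197 nt in mild EAE mouse 3 and 153 nt in severe EAE mouse 4, or 4.00% of the exonic cover of Map4. The footprints of Map4 lay instead in shorter coding exons such as exons 3, 4, 11, 17 and 18. In Map6, Map7 and Map7d1 the largest coding exon was the more densely covered part in 3 mice each, of 5, 7 and 8 with exonic footprints. The Map6 and Map7 exons, like that of Map4, are not in the complete transcript with the longest coding sequence. Of the 601 nt of the Map7 exon, 277 are coding.

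**Figure D3:**
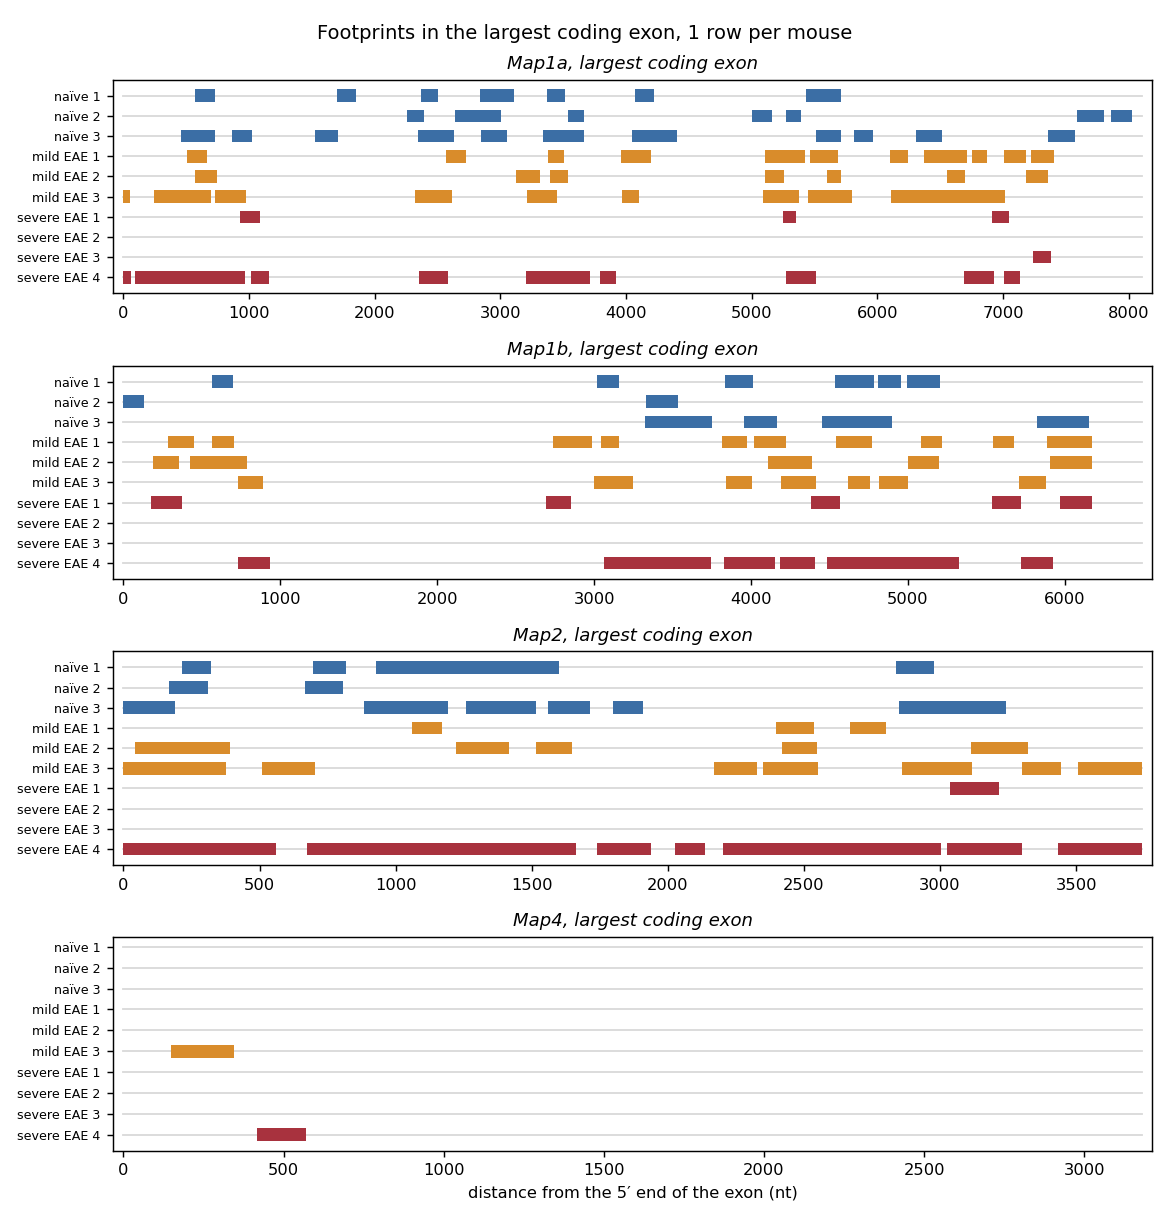
Footprints in the largest coding exon of Map1a, Map1b, Map2 and Map4, with distance from the 5′ end of the exon (nt) on the x axis and 1 row per mouse, coloured by group. Footprints spread over the length of the Map1a exon, leave 1759 nt of the Map1b exon under no footprint of any mouse, fill 86.6% of the Map2 exon in severe EAE mouse 4, and are almost missing from the Map4 exon.

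By annotation, the members' footprints were mainly coding. Of 477, 366 were centred on coding sequence, 14 on a 5′ UTR, 46 on a 3′ UTR, 3 on the UTR of a shorter transcript, 8 on a noncoding exon and 40 on an intron. Their length ranged from 19 to 987 nt with a median of 141 nt. The 5′ UTR footprints belonged to Map2 (11), Map4 (2) and Map7d1 (1), and the 3′ UTR ones mostly to Map1b (15), Map4 (10), Map2 (9) and Map1a (7). Map6 was the most intronic, with 7 of 19 footprints, followed by Map7 with 9 of 45.

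Intronic footprints were seen mostly in naïve mice. In naïve mice 24 of 158 member footprints were intronic (14.3%, 21.4% and 11.7% by mouse), in mild EAE mice 3 of 185 (1.45%, 4.26% and 0%), and in severe EAE mice 13 of 134, all of them in mouse 4 (11.3% there). Every naïve mouse thus lay above every mild EAE mouse. The same order was present over all protein-coding genes, where 28.0 to 43.2% of footprints were intronic in naïve and 10.7 to 23.8% in mild EAE mice. In each of the 8 mice with at least 10 member footprints, the members' intronic share was below that of all protein-coding genes. Annotated exons make up 5.96% of the span of Map7 and 6.15% of that of Map2, but 57.3% of that of Map1a. Map1a held 85 footprints, 1 of them intronic. The exonic share of the span over all protein-coding genes is not given here.

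**Figure D4:**
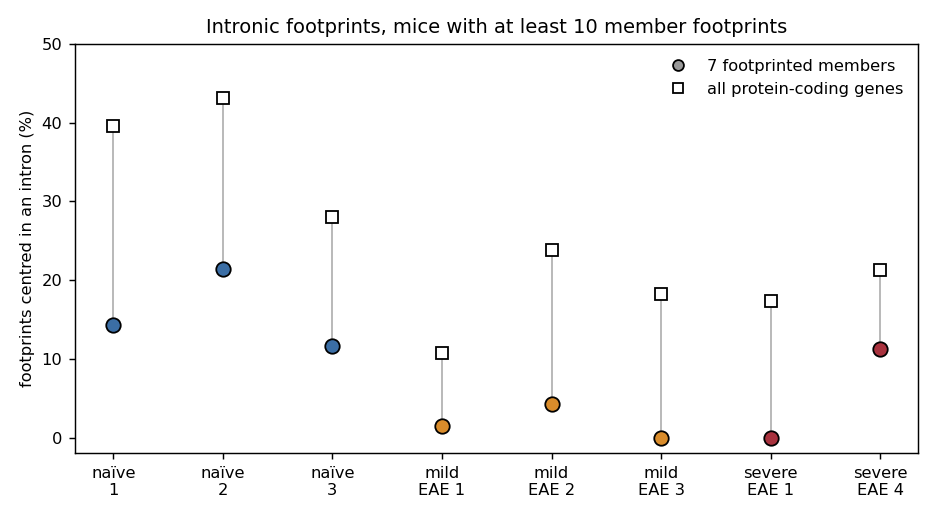
Share of footprints centred in an intron (%) in the 8 mice with at least 10 member footprints, for the 7 footprinted genes (filled circles) and for all protein-coding genes (open squares). The members lie below all protein-coding genes in each mouse, and the naïve mice (11.7 to 21.4%) lie above the mild EAE mice (0 to 4.26%).

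Footprint ends that met annotated exon ends made up a smaller share than over all protein-coding genes. In naïve mice 22.6 to 28.1% and in mild EAE mice 29.0 to 31.1% of the ends of exonic member footprints fell exactly at an exon end, beside 34.4 to 45.7% and 43.3 to 50.2% over protein-coding genes. A footprint equalled 1 whole exon in 44 of 477 cases, 11 each in Map2 and Map7d1 and 8 each in Map4 and Map7. Because the authors aligned assembled fragments across splice junctions, an end at an exon border can be where a spliced fragment was split.

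Some sites could belong to other genes. Of the 45 Map7 footprints, 15 lay inside Gm48249, an antisense gene that runs over the last exons of Map7, and 2 on Rpl32l, a ribosomal protein pseudogene in an intron. A further 3 Map2 footprints lay on the antisense gene Gm10558, 2 Map1a footprints on the antisense gene Gm14978 and 2 Map6 footprints on the sense intronic gene Gm45591. Without strand, Map7, Map2 and Map1a cannot be told apart from their antisense genes at these sites, while Gm45591 lies on the same strand as Map6 and Rpl32l on that of Map7.

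Stretches shared by mice of 1 group were most numerous in mild EAE. A shared stretch was an interval of more than 1 nt under footprints of at least 2 mice of the group. There were 42 in naïve mice (5192 nt, 36 of them coding), 54 in mild EAE mice (6568 nt, 50 coding) and 18 in severe EAE mice (1186 nt, 14 coding). All 7 footprinted members had one in naïve mice, beside 40.3% of all genes tested, 6 of 7 in mild EAE mice, beside 48.3%, and 5 of 7 in severe EAE mice, beside 13.0%. These genes were also more covered than most, with 708 nt for the median member in naïve mice beside 133 nt for the median gene. Map2 had the most in naïve mice (16) and Map1a in mild EAE mice (14). The 2 naïve stretches of Map6, of which one lay in coding exon 3 and the other, 221 nt at chr7:99321735-99321955, inside Gm45591, were not shared within either EAE group.

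**Figure D5:**
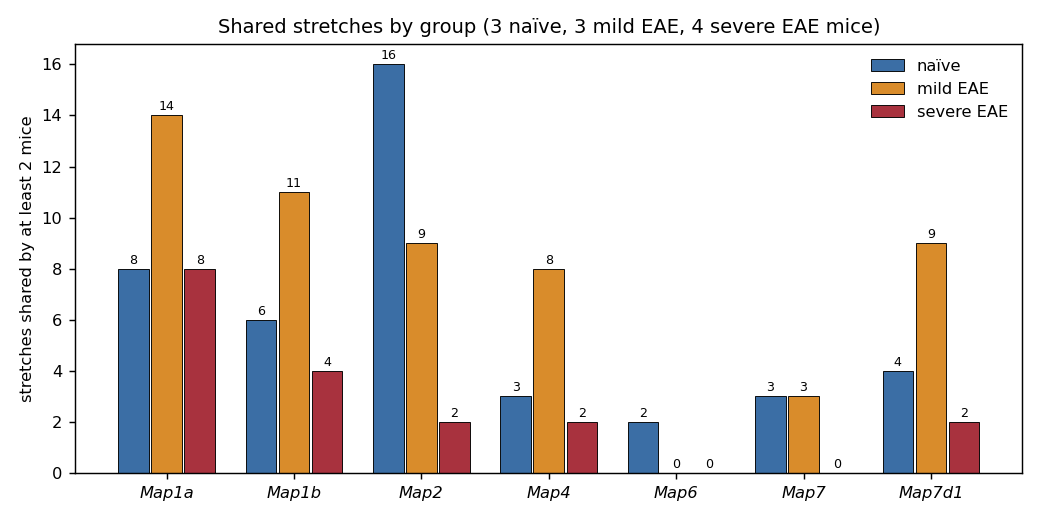
Number of stretches under footprints of at least 2 mice of a group, for the 7 footprinted genes in 3 naïve, 3 mild EAE and 4 severe EAE mice. Map2 has 16 in naïve mice and 9 in mild EAE mice, while Map1a, Map1b, Map4 and Map7d1 have more in mild EAE than in naïve mice.

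Single mice carried many of these stretches. The naïve count was 11 without naïve mouse 1 and 10 without naïve mouse 3. The mild EAE count was 23 to 31 when a mouse was left out, and the severe EAE count was 3 without mouse 1 and 0 without mouse 4, so each severe EAE stretch needed mouse 4. Of the 42 naïve stretches, 18 (42.9%) met a stretch shared in mild EAE and 3 (7.14%) one shared in severe EAE. Of the 54 mild EAE stretches, 18 (33.3%) met a naïve and 8 (14.8%) a severe EAE stretch. Exon 2 of Map7d1 was shared in all 3 groups, at chr4:126242023-126242176 in naïve, chr4:126242017-126242180 in mild EAE and chr4:126242021-126242128 in severe EAE mice. The 3′ UTR of Map2 held a stretch under footprints of at least 2 naïve mice at chr1:66441796-66441974, of which all 3 naïve mice covered chr1:66441843-66441932, and, within the stretch, one shared by 2 severe EAE mice at chr1:66441843-66441949, with a footprint there in 1 mild EAE mouse.

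The motif UAG was counted in the members' footprints and around them. Merged over the mice, the footprints formed 172 regions of 37009 nt with 9.00 UAG per 1000 nt, beside 10.3 in windows of equal length 200 nt away on either side and 10.5 in exonic sequence of the same genes under no footprint. AGGU stood at 3.22 per 1000 nt, beside 4.05 and 4.08. The sequences compared are of unlike make-up. Most footprints were centred on coding sequence, whereas the windows were not limited to coding sequence or cleared of other footprints. The exonic sequence under no footprint includes UTRs. No depletion of either motif in footprints is therefore read from these values. The members differed, from 4.71 UAG per 1000 nt in Map7d1 and 4.99 in Map1a to 12.3 in Map2 and 15.8 in Map7, where the surrounding windows had 10.6, 7.42, 12.3 and 14.6. UAG was found on the gene's strand in 49 of the 114 shared stretches (43.0%) and AGGU in 30 (26.3%), beside 40.7% and 25.9% of all 15482 shared stretches that lie in 1 gene, which are shorter (median 87.0 nt against 104 nt). Of the sequences printed above, those of Map1b and Map2 exon 7 hold 2 UAG each and that of Map7 holds 1, and among shared stretches of like length (within 10%), 64.4%, 41.8% and 43.1% hold at least 1.

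Other regulators of microtubules carried footprints too. Of 27 such genes (end-binding, stathmin, doublecortin, CAMSAP, CLASP and CLIP families, severing enzymes and further MAPs), 23 had a footprint in at least 1 mouse and 19 were tested. Of these 19, 1 passed an unadjusted exact permutation p below 0.05 between EAE and naïve mice, Map7d2 (p = 0.0333, adjusted over all genes not below 0.449), with 596, 155 and 358 nt in naïve, 175, 33 and 199 nt in mild EAE and 0, 0, 0 and 280 nt in severe EAE mice. An unadjusted p below 0.05 was also reached by 6.18% of all genes tested. Shared stretches were present in 11 of the 19 in naïve mice, beside 40.3% of all genes tested, in 12 in mild EAE mice, beside 48.3%, and in 0 in severe EAE mice, beside 13.0%. Map7d3, Map10, Dcx and Camsap3 were listed in no mouse.

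The covered length of every footprinted member went with the length of the mouse's whole list. Over the 10 mice, Pearson's r with the total covered length was 0.797 for Map7d1 to 0.934 for Map7 (Spearman's rho 0.742 to 0.912), and 0.614 to 0.858 without the 2 mice farthest from the median total. The 3 genes whose covered length was most like that of Map2 were Iqsec3 (r = 0.984), Tcf20 (r = 0.979) and Arhgap21 (r = 0.978), of 580 genes footprinted in at least 8 mice, whose median r was 0.793. These are descriptions of 10 libraries that share the spread in list length.

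Markers of cord cells gave the following levels. All 6 neuronal markers (Rbfox3, Snap25, Syt1, Nefl, Nefm and Tubb3) were footprinted in naïve mice. Summed, they had 3195 to 4528 nt there, 1100 to 2600 nt in mild EAE mice and 0 to 5696 nt in severe EAE mice. The markers differed. Every naïve mouse lay above every mild EAE mouse for Rbfox3, Syt1 and Tubb3, while the ranges overlapped for Snap25, Nefl and Nefm. For Tubb3 the lowest naïve mouse had 263 nt and the highest mild EAE mouse 253 nt. The share of all genes tested with this order is not given here, so no excess is read from these markers. All 6 oligodendrocyte markers were footprinted in each group, and 4 of 5 astrocyte markers in naïve and mild EAE mice and 5 of 5 in severe EAE mice. The oligodendrocyte sums were 1970 to 6826 nt in naïve, 2479 to 6635 nt in mild and 67 to 11060 nt in severe EAE mice. The astrocyte sums were 1295 to 3198, 2333 to 5136 and 0 to 9391 nt. For both cell types the naïve and mild EAE ranges overlapped. Of 6 microglia and leukocyte markers, 1 (Cx3cr1) was footprinted in naïve mice, with a summed 172 to 309 nt. In mild EAE mice 5 were (533 to 2219 nt) and in severe EAE mice 4 (0 to 3408 nt). Cd74 and Csf1r were at 0 in all naïve mice and Cd3e at 0 in every mouse. Cx3cr1 went the other way, with 172, 261 and 309 nt in naïve and 0, 120 and 173 nt in mild EAE mice. The part of these cell types in the members' values was not tested.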

How the data were processed

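The study measured RNA bound to hnRNP A1 in UV-crosslinked mouse spinal cord by CLIPseq. The authors trimmed reads with fastp, assembled them with rnaSPAdes, mapped the resulting fragments across splice junctions onto GRCm38 (minimap2 2.17), took away input and IgG sites and merged what was left without strand (bedtools). The deposited values are start and end positions of footprints, with no count, score or depth. By the study's mapped unique reads, severe EAE mouse 4 had the deepest of the 10 libraries and naïve mouse 2 the shallowest. Severe EAE mice 1 to 3, with the shortest lists, lay within or above the naïve range of mapped reads. The part of depth in list length was not tested. The antibody was clone 9H10 per the labels and clone 4B10 per the study's methods. Mice are numbered as the study designates them.

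Footprints were set against the GENCODE release 21 annotation of mouse genes, and covered nucleotides per gene and mouse were computed with Python 3.11.15 and numpy 2.4.6. Genes footprinted in at least 3 mice (6731) were tested. EAE and naïve mice were compared by a two-sided exact permutation test of the mean (120 splits, smallest possible p 0.00833) and the 3 groups by an exact permutation test of the between-group sum of squares (4200 assignments), with Benjamini-Hochberg adjustment over all genes tested. Tests were tried on simulated data first. The named genes are the 8 members, the 3 most like the most covered member, and listed genes by count. The members and gene lists were chosen with earlier results of these data known. Sequences come from the RefSeq copy of GRCm38, read with pysam 0.24.0. Alternatives were a 30-nt minimum footprint, exonic nucleotides only, scaling by total covered length or by the study's mapped reads, log2(nt + 1), and leaving out each mouse; log2 values were computed here from the deposited positions.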

Additional observations from a re-analysis of the deposited data

Results flagged for a closer look

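In 6 of the 7 footprinted members, severe EAE mouse 4 stood far from the other 3 mice of its group. Its gap to the nearest of them, as a share of the whole range of the group, was 1.00 for Map6 and Map7, 0.942 for Map4, 0.938 for Map2, 0.927 for Map1a and 0.906 for Map7d1, above Dixon's 95% critical value for 4 samples. Chance flags about 1 in 20 groups, and the 6 genes share the same mouse, whose list of 31870 footprints was the longest. For Map1b the same mouse was highest too, but severe EAE mouse 1 (1134 nt) lay between. The study likewise treats severe EAE mouse 4 as an outlier, with a binding profile like that of naïve and mild EAE mice. It reports that this mouse had been in remission shortly before the end of the experiment. The part of remission in these values was not tested.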

How the results depend on the processing

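No setting took any member past an adjusted p below 0.05 over all genes (adjusted p from 0.167 to 1.00), also when every gene with a footprint in at least 1 mouse was tested. Map2, Map6 and Map7 were lower in EAE under each setting. The difference (EAE minus naïve) reversed for Map1a per 1000000 covered nt (1360), and for Map1b, Map4 and Map7d1 per 1000000 mapped unique reads (−128, −74.9 and −63.0) and on log2(nt + 1) (−2.61, −2.33 and −2.38). Leaving out 1 mouse gave −404 to 437 nt for Map1a, −381 to 608 nt for Map1b, −45.5 to 436 nt for Map4 and −41.0 to 195 nt for Map7d1, with reversals also at 9.00, 177, 199 and 222 nt for Map1a, −145 nt for Map1b and −5.07 and −33.7 nt for Map7d1. With a replicate block, pairing naïve and severe EAE mice 1 to 3 by number, the mean difference was −1201 nt for Map1b, −652 nt for Map4 and −551 nt for Map7d1, with an exact p of 0.250, the smallest that 3 pairs allow. The numbers mark no shared litter or day, and deviations of same-numbered mice correlated at −0.645, 0.654 and 0.161 over genes. Members with an unadjusted exact p below 0.05 against naïve numbered 0, but 2 per 1000000 mapped unique reads (Map6 and Map7, beside 18.3% of genes) and 0 to 1 when a mouse was left out. Among the 3 groups they numbered 0, but 2 on log2(nt + 1) (Map6 and Map7, beside 12.1% of genes) and 0 to 4 when a mouse was left out. Shared stretches numbered 42, 54 and 18 in naïve, mild and severe EAE mice, but 5, 15 and 0 when at least 3 mice were required, and 10 to 31, 23 to 31 and 0 to 17 when a mouse was left out. Members with each naïve mouse above each severe EAE mouse numbered 0, and 0 to 6 when a mouse was left out, a check added after the data were seen, as was the unfootprinted exonic sequence beside the motifs. The lists give no depth, so a gene without a footprint can be unbound, weakly expressed or missed.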
